A study of Homo sapiens with 4 samples.

Results

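The regions described here were the 300 highest-ranked clusters of H3K27ac peaks away from gene ends in untreated K562 cells, and the same regions were then read in daunorubicin-treated cells. K562 is an established human line that came from a chronic myeloid leukaemia at the stage of blast crisis, and daunorubicin is an anthracycline, a DNA intercalator and topoisomerase II poison. H3K27ac ChIP-seq was run on K562 cells given 1 uM daunorubicin for 18 h and on K562 cells cultured in parallel without the drug. Each condition had 1 H3K27ac library and 1 input library, each deposited as a list of called peaks with a score and no read counts. With 1 library per condition there was no replicate spread and no test between conditions was made, and the read depth behind the peaks was unknown. Intervals given below are 95% Wilson intervals on shares of regions, and they cover counting error only.

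Members were chosen on the untreated list. Peaks on chromosomes 1 to 22 and X that lay more than 1 kb from every RefSeq gene end (hg38) were taken as distal, distal peaks separated by 12500 bp or less were stitched, and the clusters were ranked by the sum of score times width over their peaks. The untreated list held 38539 peaks on these chromosomes, of which 24252 were distal and formed 15881 clusters. The 300 kept were 1.89% of the clusters and held 16.2% of the summed score times width. The daunorubicin list held 65008 peaks, of which 46559 were distal and formed 24491 clusters under the same rule. Because the untreated values chose the members, their untreated scores, widths and ranks are a description and support nothing further. The scores are the authors' own and were used to rank or describe peaks within a list. Where scores of both lists stand side by side, or 1 score limit is set in both, the difference is not read as a change in signal, and ranks from lists of different length show no change.

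H3K27ac is the acetylation of lysine 27 on histone H3, laid down by the acetyltransferases p300 and CBP at active promoters and active enhancers. Super-enhancers are usually defined by stitching neighbouring enhancer peaks and keeping the clusters at the top of a ranked signal curve, and they are known for lying near genes of cell identity and, in tumour cells, near oncogenes. In erythroid cells such clusters are typically built on sites of GATA1 and TAL1, whereas constitutive promoters are typically CpG islands with GC boxes. The label of these 300 clusters as super-enhancer-like was therefore set against the number of peaks they hold and against annotated transcript starts.

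To show the kind of sequence at transcript starts in these clusters, 6 start windows within their spans are printed from RefSeq (GRCh38.p14). Each runs from 250 bases before to 50 bases after the start, 5′ to 3′ on the gene's strand. In this report a peak on a start means a peak that overlaps the start window, and it need not reach the start base itself. Sequence was at hand for start windows only. Peaks away from starts were therefore not read, and 143 of the 300 clusters had no start under a distal peak. They were picked after the values were seen, as high-ranked starts marked in both lists (CDKN2C, HNRNPH1), starts of blood-cell genes from the lists used below (RUNX1, EPB41) and starts whose overlap changed between the lists (SRPK2, LTBP4). The windows other than that of SRPK2 lie under an untreated distal peak of their cluster, and the SRPK2 window lies under a daunorubicin peak only. Capitals mark 3 motifs on either strand: GGGCGG, which is the GC box, CCAAT, which binds the factor NF-Y, and AGATAA, which binds GATA factors. The windows are chr1:50968456-50968755 (plus strand) for CDKN2C, chr5:179623622-179623921 (minus) for HNRNPH1, chr21:34888650-34888949 (minus) for RUNX1, chr1:28914319-28914618 (plus) for EPB41, chr7:105389342-105389641 (minus) for SRPK2 and chr19:40601119-40601418 (plus) for LTBP4.
CDKN2C: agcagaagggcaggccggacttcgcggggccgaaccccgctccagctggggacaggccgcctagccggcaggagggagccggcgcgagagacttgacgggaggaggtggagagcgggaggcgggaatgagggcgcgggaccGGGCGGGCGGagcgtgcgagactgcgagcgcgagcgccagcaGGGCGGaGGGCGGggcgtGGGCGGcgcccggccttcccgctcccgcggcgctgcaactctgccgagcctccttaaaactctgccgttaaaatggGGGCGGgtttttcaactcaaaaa
HNRNPH1: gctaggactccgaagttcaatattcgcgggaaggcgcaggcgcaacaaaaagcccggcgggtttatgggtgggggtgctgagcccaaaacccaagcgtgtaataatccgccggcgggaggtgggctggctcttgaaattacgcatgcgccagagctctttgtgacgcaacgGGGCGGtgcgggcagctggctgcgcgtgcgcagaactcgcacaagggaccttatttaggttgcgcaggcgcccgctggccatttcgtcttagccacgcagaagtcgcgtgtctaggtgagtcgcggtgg
RUNX1: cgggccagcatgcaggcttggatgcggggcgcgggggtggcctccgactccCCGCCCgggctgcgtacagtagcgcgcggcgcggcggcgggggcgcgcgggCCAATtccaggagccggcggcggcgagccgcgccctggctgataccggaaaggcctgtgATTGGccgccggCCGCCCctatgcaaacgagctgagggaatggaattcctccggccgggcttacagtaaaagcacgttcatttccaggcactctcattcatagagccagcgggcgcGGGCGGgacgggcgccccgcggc
EPB41: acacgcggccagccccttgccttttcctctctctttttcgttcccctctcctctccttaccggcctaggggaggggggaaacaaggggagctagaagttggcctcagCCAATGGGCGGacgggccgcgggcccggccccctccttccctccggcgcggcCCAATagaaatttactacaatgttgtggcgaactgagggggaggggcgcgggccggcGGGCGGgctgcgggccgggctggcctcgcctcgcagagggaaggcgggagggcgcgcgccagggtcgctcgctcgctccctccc
SRPK2: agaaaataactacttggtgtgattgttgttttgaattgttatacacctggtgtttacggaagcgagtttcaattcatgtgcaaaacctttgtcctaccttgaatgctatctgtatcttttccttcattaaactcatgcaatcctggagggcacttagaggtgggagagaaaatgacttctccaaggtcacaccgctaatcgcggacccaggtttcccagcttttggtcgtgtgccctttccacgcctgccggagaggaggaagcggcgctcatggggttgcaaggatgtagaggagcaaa
LTBP4: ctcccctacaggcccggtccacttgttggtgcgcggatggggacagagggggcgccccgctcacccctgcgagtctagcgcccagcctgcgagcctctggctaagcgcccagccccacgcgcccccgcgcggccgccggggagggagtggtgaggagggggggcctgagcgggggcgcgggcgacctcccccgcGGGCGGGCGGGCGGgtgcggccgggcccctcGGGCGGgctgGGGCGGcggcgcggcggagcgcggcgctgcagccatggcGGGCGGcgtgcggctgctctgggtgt

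The 6 windows held no AGATAA. GC boxes were found at 6 positions in the CDKN2C window, 1 in HNRNPH1, 3 in RUNX1, 2 in EPB41, 6 in LTBP4 and 0 in SRPK2. CCAAT was found at 2 positions in each of the RUNX1 and EPB41 windows, and 1 of those in EPB41 adjoins a GC box, so that the capitals run on. The windows of CDKN2C, an inhibitor of the cyclin-dependent kinases CDK4 and CDK6, and of RUNX1, a transcription factor of blood stem cells, were 71.3% and 72.0% G or C. The SRPK2 window, at a start of a kinase of splicing factors, was 47.0% G or C.

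The 300 clusters were mixed in both respects: 173 held 2 or more peaks, and 143 had no start under a distal peak. This make-up depends on the ranking measure, since ranking by summed width gave 0 single peaks. A single peak made up 127 of the 300 (42.3%), 2 peaks made up 54, and 119 held 3 or more, up to 16 in the cluster beside CPEB4. Single peaks were more common among the clusters not kept, 10821 of 15581. The median was 2 peaks in the 300 and 1 in the clusters not kept. In 178 clusters (59.3%) more than 90% of the summed score times width lay in 1 peak. These include the 127 single peaks, for which this holds by construction. Of the 173 clusters with 2 or more peaks, 139 had more than 50% in 1 peak. The ranked curve passed its slope-1 point, a common limit for super-enhancers, at rank 1409, so the 300 lie well inside it. They are called the top clusters below, since the name super-enhancer was not borne out for many of them.

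**Figure D1:**
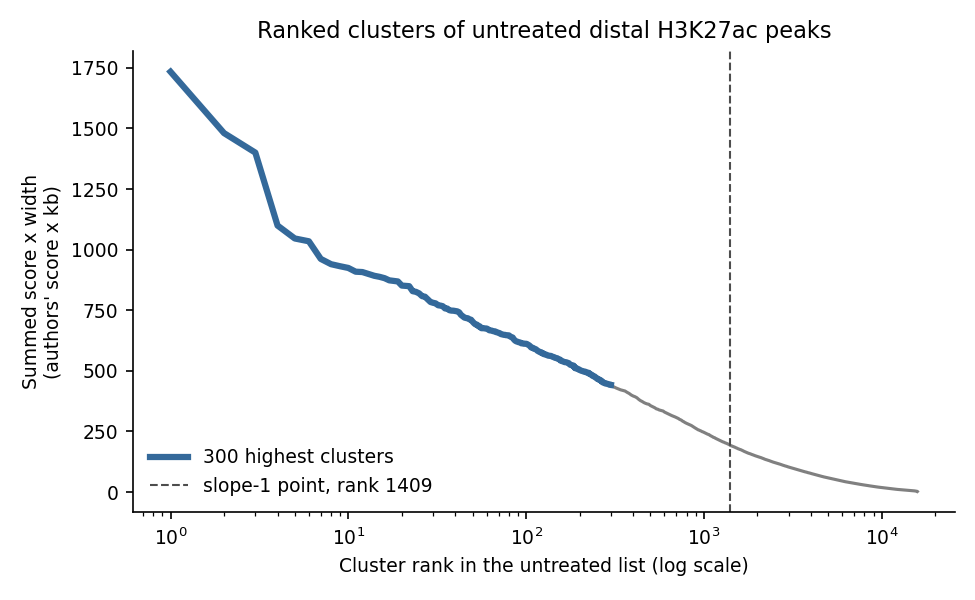
Summed score times width of each cluster of untreated distal peaks (y axis, score times kb) against its rank (x axis, log scale). The blue line is the 300 top clusters, which run down to 441693 score times bp at rank 300, and the dashed line is the slope-1 point at rank 1409.

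A distal peak overlapped the window of an annotated transcript start in 157 of the 300 top clusters, 52.3% (interval 46.7% to 57.9%). This was the case for 5.12% of all clusters of untreated distal peaks and 4.21% of the clusters not kept. The share was 36.7% at ranks 301 to 600 and 0.876% at ranks 9601 to 15881. Ranking used the score, and among peaks of like score the shares on a start were closer. From a score of 200 up they were 52.6% of the peaks of the top clusters and 37.1% of other distal peaks. From 100 to 200 they were 23.5% and 15.1%, from 50 to 100 4.90% and 4.11%, and below 50 0.308% and 1.04%. Of these 157 clusters, 155 lay in a protein-coding gene. The windows were those of shorter or other transcripts, since distal peaks lie by the rule more than 1 kb from every gene end. The strongest peak itself was on a start in 145 clusters. The 127 single peaks were broad and strong, with medians of 1712 bp in width and 334 in score, while gene-end peaks of the same list had medians of 1246 bp and 146, and distal peaks of the clusters not kept 593 bp and 30.

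The start windows under peaks of the top clusters were rich in C and G. There were 237 such windows of 158 genes, with a median of 71.0% G or C and a CpG observed-to-expected ratio of 0.882. The 814 windows under the other untreated distal peaks had medians of 64.3% and 0.702, and all 34961 windows had 58.7% and 0.580. The GC box GGGCGG was present in 80.6% of the windows under top clusters, 60.4% of those under other distal peaks and 45.0% of all windows. The GATA motif AGATAA was present in 1.27%, 7.99% and 10.3% of the same 3 sets, and the AP-1 motif TGANTCA in 2.53%, 8.35% and 7.68%. TATAAA was in 2.11%, 6.39% and 11.5%, CCAAT in 31.6%, 34.8% and 34.6%, and the E-box CACGTG in 7.59%, 7.86% and 7.27%. Each motif was searched on both strands, the GC box and the GATA motif differ in base composition as the sets of windows do, and a match is a run of letters and not a bound site. Windows of 1 gene can overlap each other. These values describe transcript starts and not the distal peaks without a start, whose sequence was not read.

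The other 143 top clusters had no annotated start under a distal peak, and 68 of them held 3 or more peaks, with a median of 5 peaks over a median span of 28170 bp. In 7 of these 68 a gene-end peak between the distal ones lay on a start, as at BHLHE40. This is the subset nearest to the usual description of a super-enhancer. GAB2, CPEB4, BHLHE40, ZNRF1, NET1, GSE1 and IFITM3 are genes at clusters of this kind. No protein-coding or other gene overlapped 46 of the 300 clusters, all of them without a start under a distal peak, and 234 (78.0%) lay in a protein-coding gene, against 60.1% of the clusters not kept. Gene names below give the gene that a cluster overlaps or the nearest one, and no target was assigned.

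The highest-ranked cluster lay in UBE2L3, a ubiquitin-conjugating enzyme, at chr22:21555476-21589143. It held 5 peaks in each list, which covered 6346 bp with daunorubicin and 4310 bp in untreated cells. Its strongest peak was 1878 bp wide with a score of 556 with daunorubicin and 1721 bp wide with a score of 876 in untreated cells. It was the only top cluster with input peaks: the daunorubicin input had a peak of 1608 bp and the untreated input a peak of 952 bp, both over the first peak of the cluster, which scored 379 with daunorubicin and 135 in untreated cells, and not over the strongest one. Their part in the rank of the cluster was not tested.

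Next in rank were clusters in PHF19, an accessory subunit of the Polycomb complex PRC2, and in CDKN2C. PHF19 had 3942 bp under 2 peaks with daunorubicin and 3636 bp under 3 peaks in untreated cells. CDKN2C had 5544 bp under 2 peaks with daunorubicin and 4748 bp under 3 peaks in untreated cells. Both clusters were thus covered over more bases by fewer peaks in the daunorubicin list, since neighbouring untreated peaks were called as 1. SSC4D at rank 4 had 8 peaks in each list, over 8693 bp with daunorubicin and 7737 bp in untreated cells, and ACBD3, a Golgi protein whose gene lay 12201 bp from the rank 5 cluster, had 3 peaks in each, over 4173 bp with daunorubicin and 2954 bp in untreated cells.

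HNRNPH1, an RNA-binding splicing regulator, had a single untreated peak of 1854 bp on the start printed above. With daunorubicin it was called as 2 peaks of 652 and 1135 bp, together 1787 bp, which left a gap over most of the start window. Such splitting by 2 or more daunorubicin peaks was seen for 47 of the 834 untreated distal peaks of the top clusters, 5.64%. No share over the other distal peaks is at hand, so this is not read as a trait of the top clusters. C2orf42 at rank 7 had 8 peaks in each list, over 10148 bp with daunorubicin and 9155 bp in untreated cells. CIZ1, a nuclear matrix protein, had 1 peak in each list of 1269 bp with daunorubicin and 1324 bp in untreated cells.

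Among ranks 9 to 20, coverage was longer with daunorubicin at 10 of 12 clusters, beside 65.1% of all clusters and 64.3% of the 300. MIB1, a ubiquitin ligase of Notch ligands, had 3381 bp with daunorubicin and 3250 bp in untreated cells. AMOTL1, of the angiomotin family, had 8767 bp under 9 peaks with daunorubicin and 6923 bp under 7 peaks in untreated cells. The clusters at FMC1-LUC7L2, ZNF786, TBX1, CYREN, LMNA (the nuclear lamins A and C), TUBA1C (an alpha tubulin), DYNC2I2 and ATAD2 (a bromodomain ATPase) had ratios of daunorubicin to untreated coverage between 1.03 and 1.24. BANP, a DNA-binding protein of CpG islands, had 1927 bp with daunorubicin and 2094 bp in untreated cells, and FBXO46 had 3827 bp with daunorubicin and 4600 bp in untreated cells. All 12 differed by less than 1.5-fold in either direction.

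**Figure D2:**
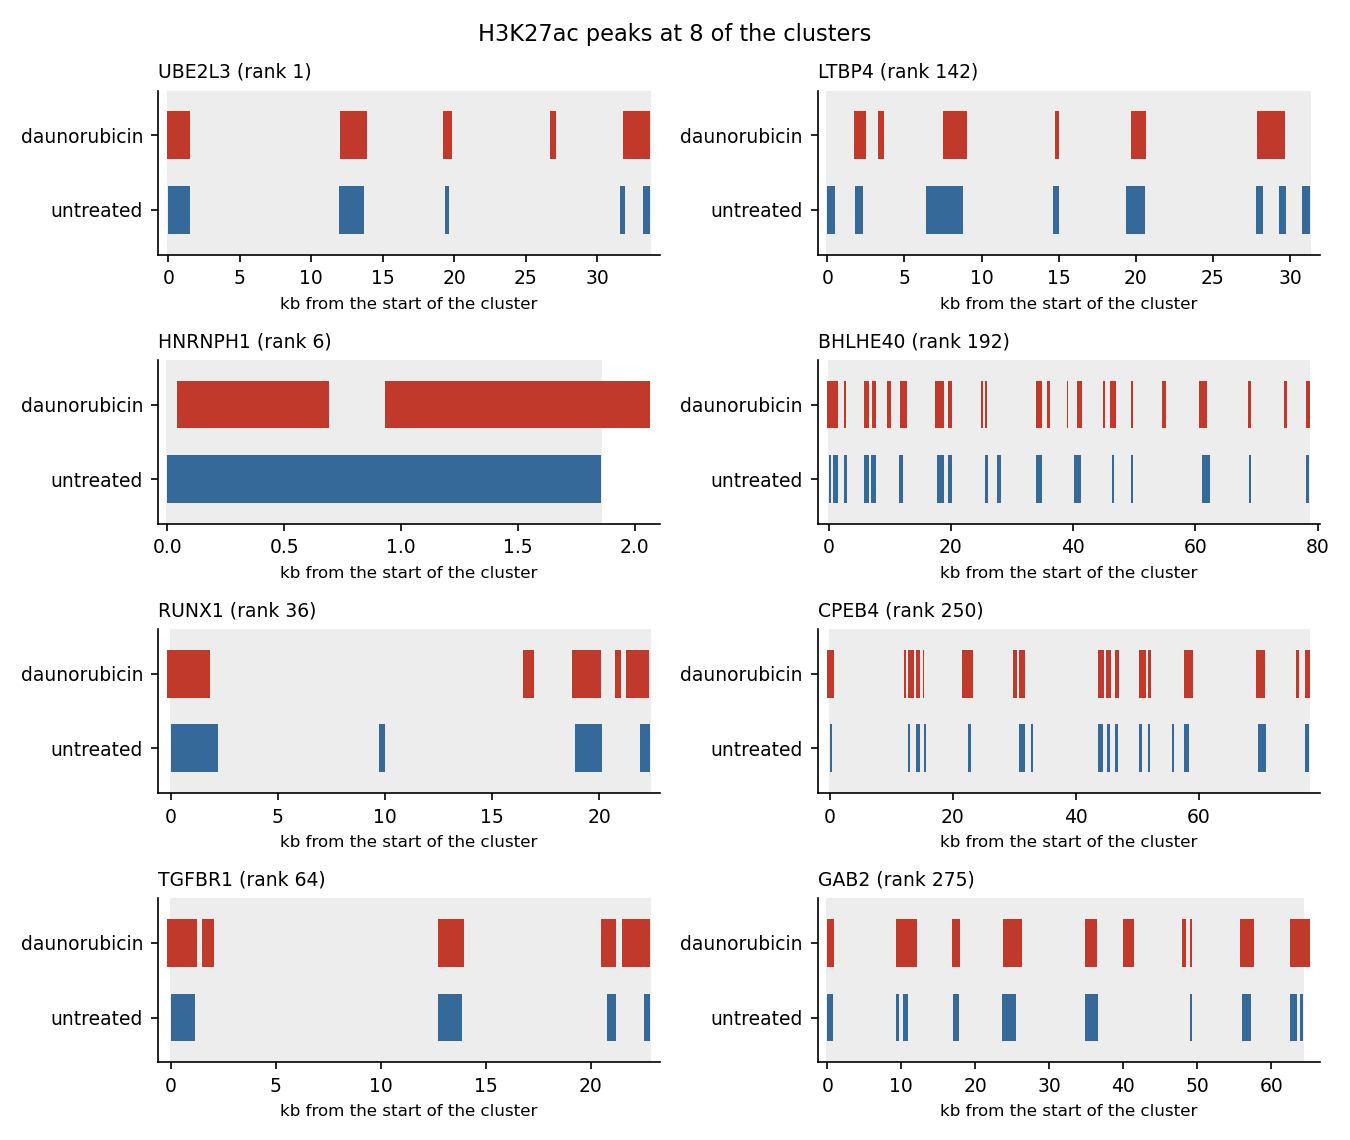
Peaks at 8 top clusters, in kb from the start of the cluster (x axis), with the daunorubicin list in the red upper row and the untreated list in the blue lower row; grey marks the span of the cluster. GAB2 and CPEB4 have wider daunorubicin peaks at most positions, HNRNPH1 has 2 daunorubicin peaks where the untreated list has 1, and BHLHE40 has 22 daunorubicin peaks and 17 untreated peaks.

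The marking of the top clusters was found again in the daunorubicin list. All 300 were touched by a daunorubicin peak, against 88.8% of all clusters. This was not particular to them, since the share was also 100% at ranks 301 to 600, 601 to 1200 and 1201 to 2400. Of their 834 untreated distal peaks, 771 were overlapped by a daunorubicin peak, 92.5% (interval 90.5% to 94.1%), against 85.0% of the 23418 distal peaks of other clusters (84.6% to 85.5%). The 63 peaks not overlapped had a median score of 20 and a highest score of 134. Every peak was kept in 248 of the 300 clusters, a count without a counterpart for the other clusters. Peaks of like score were overlapped about as often inside as outside the top clusters. Below a score of 50 the shares were 82.5% (78.0% to 86.2%) in the top clusters and 80.7% (80.2% to 81.3%) elsewhere, from 50 to 100 they were 96.5% and 98.0%, and from 200 up they were 247 of 247 and 342 of 342.

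The spans of the top clusters held 92 daunorubicin peaks that overlapped no untreated peak, in 62 clusters, which are 35.8% of the 173 with 2 or more peaks, with a median width of 379.5 bp, a median score of 29.5 and a highest score of 108. The count depends on the settings: it was 13 with a score limit in both lists, 37 with lists of equal length, 263 with reciprocal overlap of 50%, and 3 and 500 with stitching gaps of 5 and 25 kb. Per 10 kb of gap between untreated peaks this was 0.292 in the top clusters and 0.373 in the 4760 other clusters of 2 or more peaks. BHLHE40, a transcriptional repressor of the bHLH family, had 7 of the 92 at chr3:4977141-5055678, its cluster at rank 192. In 30 top clusters, 34 daunorubicin peaks each joined 2 or more untreated peaks, and no such count is at hand for the other clusters. The top clusters held 903 daunorubicin peaks and 858 untreated peaks in all, gene-end peaks included.

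Coverage of the top clusters changed little. Summed over the 300, the full widths of touching peaks came to 1082685 bp with daunorubicin and 984667 bp in untreated cells, a ratio of 1.10, against 1.25 for the clusters not kept. The median ratio per cluster was 1.05 (quartiles 0.957 and 1.17), against 1.19 (0.862 and 1.67) for the clusters not kept. Coverage was longer with daunorubicin at 193 of 300, 64.3% (58.8% to 69.5%), and this held for 65.1% of all clusters, so the share of the top clusters was that of the background. When daunorubicin peaks were clipped to the span of the cluster, which cannot lengthen a cluster of 1 peak, 33.7% were longer; full widths were chosen after both values were seen. A ratio of at least 1.5 was reached by 14 of 300, 4.67% (2.80% to 7.68%), against 31.0% of all clusters, and a ratio of 1.5-fold shorter or more by 4 of 300, 1.33% (0.520% to 3.38%), against 16.8% of all clusters. At ranks 301 to 600 these shares were 5.33% and 1.67%, close to those of the top clusters.

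**Figure D3:**
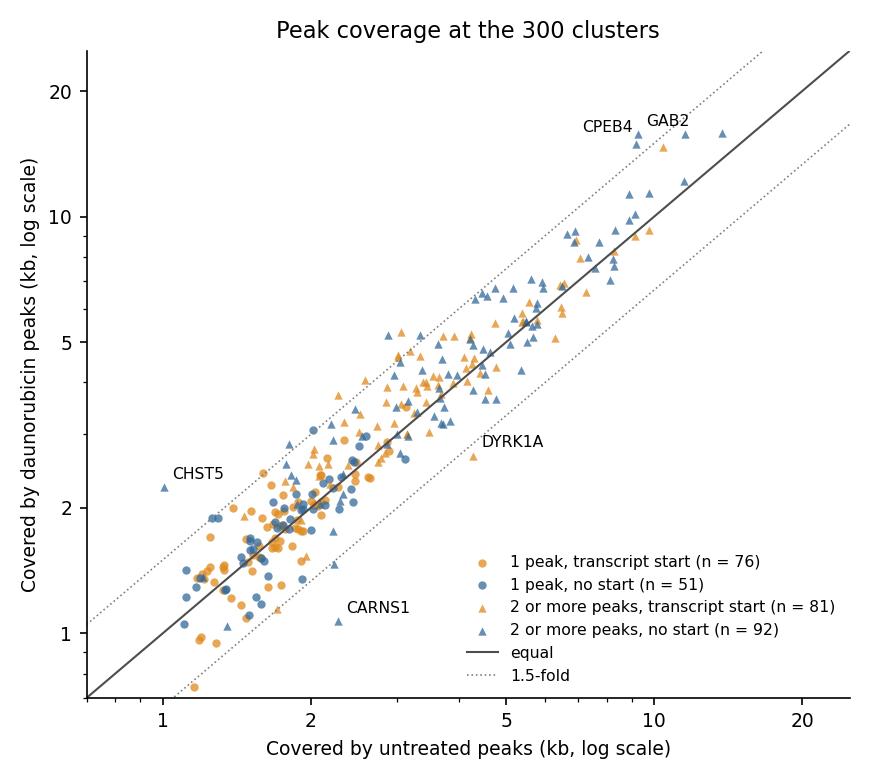
Bases covered by daunorubicin peaks (y axis, kb, log scale) against bases covered by untreated peaks (x axis, kb, log scale) at each of the 300 top clusters; circles have 1 untreated distal peak, triangles 2 or more, and orange marks clusters with a distal peak on an annotated transcript start. Most points lie between the dotted 1.5-fold lines, with 14 above the upper line and 4 below the lower one.

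The narrow spread of the ratio followed rank. At ranks 301 to 600 the median was 1.06, at 2401 to 4800 it was 1.15, and at 9601 to 15881 it was 1.32 with a lower quartile of 0, and 73.7% of the clusters in that last bin had a daunorubicin peak. Peaks of like score were set side by side on another measure, the ratio of daunorubicin to untreated width of overlapped untreated peaks only. Its size cannot be set against that of cluster coverage. Below a score of 50 the median was 1.37 in the top clusters and 1.48 elsewhere. It was 1.05 and 1.15 from 50 to 100, 1.01 and 1.06 from 100 to 200, and 1.04 and 1.06 from 200 up. Within the top clusters, the 157 with a transcript start had a median ratio of 1.05 and the 143 without one 1.06. The 127 of a single peak had a median of 1.03, with 56.7% longer, and the 173 of 2 or more peaks a median of 1.09, with 69.9% longer. The 1726 clusters of 3 or more peaks that were not kept had a median of 1.28, with 79.5% longer, against 1.09 and 68.9% for the 119 such top clusters.

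**Figure D4:**
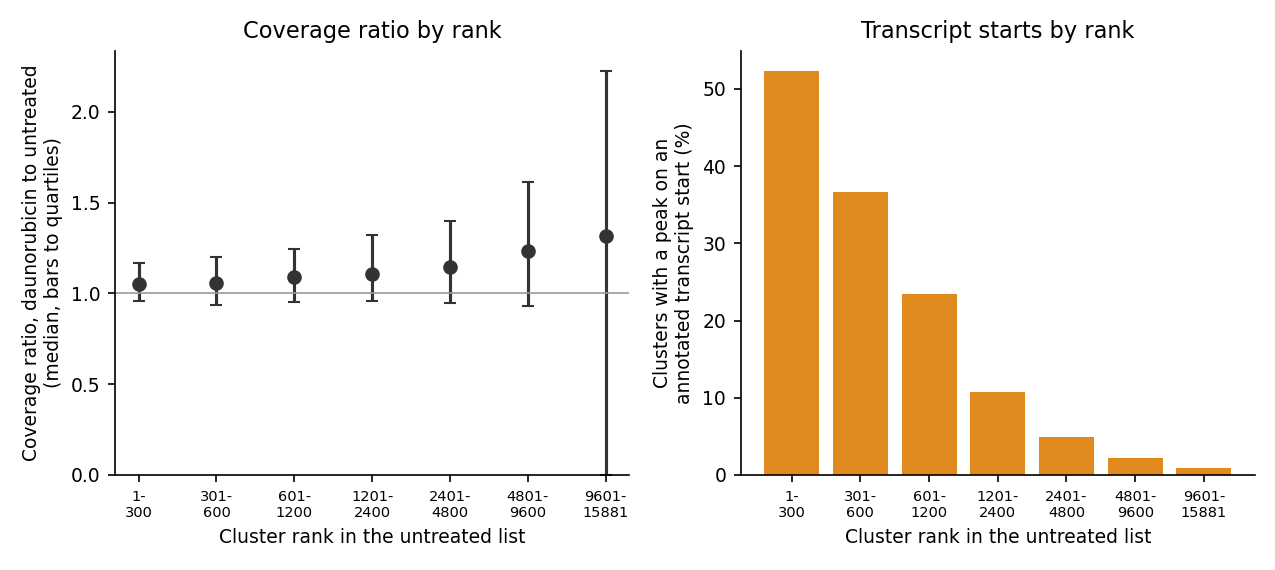
Left, ratio of daunorubicin to untreated coverage by bin of cluster rank, as medians with bars to the quartiles; right, the share of clusters with a peak on an annotated transcript start (%), in the same bins. The median ratio is 1.05 in the top 300 and 1.32 in the last bin, while the share with a start is 52.3% in the top 300 and 0.876% in the last bin.

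The largest gains of covered length lay in clusters of 9 to 16 untreated distal peaks, at GAB2, CPEB4, MACF1 and BHLHE40. GAB2, the scaffold adaptor that carries signals from BCR-ABL1 and cytokine receptors, had 15776 bp with daunorubicin and 9255 bp in untreated cells, with 10 peaks in each list. The cluster lay at chr11:78314654-78378998 in the gene. Its widest peak was 2873 bp with daunorubicin and 1869 bp in untreated cells, and 2 of the daunorubicin peaks overlapped no untreated one. The gain at GAB2 thus came mostly from wider peaks at positions already marked.

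CPEB4, which binds cytoplasmic polyadenylation elements of mRNAs, lay 1663 bp from the cluster with the most peaks, at chr5:173808756-173886686. It had 14926 bp under 17 peaks with daunorubicin and 9188 bp under 16 peaks in untreated cells. MACF1, a crosslinker of microtubules and actin, had 14691 bp under 12 peaks with daunorubicin and 10403 bp under 9 peaks in untreated cells. BHLHE40 had 15740 bp under 22 peaks with daunorubicin and 11554 bp under 17 peaks in untreated cells. Of these, only the GAB2 and CPEB4 clusters passed 1.5-fold, at 1.70 and 1.62.

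The other clusters with the largest gains were at DNAJC6 (a cochaperone of clathrin uncoating), MRAP2 (an accessory protein of melanocortin receptors), TAOK3 (a kinase), ZEB2, TGFBR1 and TMEM235. ZEB2, a zinc finger repressor, had 5203 bp with daunorubicin and 2877 bp in untreated cells, with 3 peaks in each list. TGFBR1, the type I receptor of TGF-beta, had 5289 bp under 5 peaks with daunorubicin and 3053 bp under 4 peaks in untreated cells. Its strongest peak, on a transcript start, was 1200 bp with daunorubicin and 1160 bp in untreated cells, so the gain lay in the weaker flanking peaks. DNAJC6, MRAP2, TAOK3 and TMEM235 gained 2095 to 2420 bp. The highest ratio of all 300 was 2.23, at the cluster 11091 bp from CHST5, with 2244 bp with daunorubicin and 1007 bp in untreated cells.

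The largest losses were smaller than the largest gains. DYRK1A, a kinase encoded on chromosome 21, had 2670 bp under 3 peaks with daunorubicin and 4286 bp under 4 peaks in untreated cells, a ratio of 0.623. CARNS1, the carnosine synthase, had 1069 bp under 1 peak with daunorubicin and 2268 bp under 3 peaks in untreated cells, and its ratio of 0.471 was the lowest of the 300. ELAPOR2 had 1464 bp under 1 peak with daunorubicin and 2229 bp under 3 peaks in untreated cells. GRK6, a kinase of G protein-coupled receptors, had a single peak of 742 bp with daunorubicin and 1157 bp in untreated cells. These 4 were the clusters at least 1.5-fold shorter.

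The remaining clusters among the 10 largest losses were at LY86, IQSEC1, GSE1, AGPAT4, NFIC, FBXO46 and NANOS3, with ratios between 0.765 and 0.916. GSE1 held 2 top clusters, which went opposite ways. The one at rank 230 had 9 peaks over 7048 bp with daunorubicin and 11 peaks over 8127 bp in untreated cells, while the one at rank 186 had 6721 bp with daunorubicin and 5162 bp in untreated cells, a ratio of 1.30. NFIC, a transcription factor of the nuclear factor I family, had 3659 bp under 4 peaks with daunorubicin and 4518 bp under 3 peaks in untreated cells.

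Of the 11 clusters with 9 or more untreated distal peaks, 7 were longer and 4 shorter with daunorubicin. The share longer was 65.1% of all clusters and 79.5% of the clusters of 3 or more peaks that were not kept. CPEB4, BHLHE40, GAB2, MACF1 and MRAP2 are given above among the gains, and the GSE1 cluster at rank 230 among the losses. The others were ZNRF1 and ANO10 with 12 peaks, NET1 with 10, and BCOR and IFITM3 with 9. ZNRF1, a ubiquitin ligase, had 15827 bp with daunorubicin and 13761 bp in untreated cells, a ratio of 1.15. NET1, an exchange factor for RhoA, had 12201 bp with daunorubicin and 11494 bp in untreated cells. BCOR (a corepressor of BCL6), ANO10 and IFITM3 (an interferon-induced membrane protein) had ratios of 0.980, 0.993 and 0.992.

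The spans of the 300 held 293 start windows: 247 were under a peak in both lists, 2 under a daunorubicin peak only (SRPK2, RPGRIP1), 6 under an untreated peak only (CTDSP1, MAPKAPK3, LOC101928047, RALGDS, ATP5MC2, LTBP4) and 38 under neither. Of the 237 windows under a distal peak of a top cluster, 97.5% were under a daunorubicin peak, against 94.0% of the 814 windows under other untreated distal peaks. Over all 34961 windows, 43.2% were under a daunorubicin peak and 40.7% under an untreated peak. At both printed examples of a change the peaks lay close by. The SRPK2 window was under a daunorubicin peak of 1745 bp and 19 bp from the nearest untreated peak. The LTBP4 window was under the edge of an untreated peak of 2404 bp and 1069 bp from the nearest daunorubicin peak, which was 1568 bp wide. LTBP4 encodes a latent TGF-beta binding protein.

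RUNX1, at rank 36, had a start window under a peak in both lists, 2016 bp wide with daunorubicin and 2183 bp in untreated cells. Its cluster held 5 peaks over 5225 bp with daunorubicin and 4 peaks over 4232 bp in untreated cells, a ratio of 1.23. An untreated peak of 302 bp was not overlapped, and daunorubicin peaks of 495 and 271 bp overlapped no untreated peak. EPB41, the red cell membrane protein 4.1, was at rank 259 with 5585 bp with daunorubicin and 5388 bp in untreated cells.

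Few genes of the blood-cell, other-tissue, stress and drug lists lay within 50 kb of a top cluster. Of 265 genes in 17 lists, 12 did, 4.53%, against 3.77% of 19974 protein-coding genes. That share is near the background for the pooled lists, and single lists differed. Within the slope-1 limit of rank 1409 the count was 2884 of 19974 protein-coding genes. It was 7 of 16 erythroid transcription factors and 11 of 20 genes of erythropoietin and BCR-ABL1 signalling. STAT5A and STAT5B are in both lists, and their best-ranked cluster was at rank 354 for each. The count was 8 of 20 immediate early genes, 5 of 14 megakaryocyte and platelet genes and 4 of 14 granulocyte and monocyte genes. It was 4 each of 18 haem and iron genes, 20 p53 targets and 16 apoptosis genes, and 3 of 19 ALDH genes. It was 4 of 20 red cell membrane genes, 2 of 14 stem and progenitor factors and 0 of 10 globins. The other lists had 0 or 1. Among erythroid transcription factors this was 1 of 16, LDB1, the bridging factor of the GATA1 and TAL1 complex, 10983 bp from a single peak of 2424 bp with daunorubicin and 1600 bp in untreated cells, which lies in PPRC1. Of 14 stem and progenitor factors it was RUNX1. Of 20 red cell membrane genes it was ANK1, EPB41 and RHD. ANK1, ankyrin of the red cell skeleton, had 4816 bp with daunorubicin and 4476 bp in untreated cells. The cluster 24251 bp from RHD, which encodes the Rh D antigen, had 3490 bp with daunorubicin and 3737 bp in untreated cells.

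Of 20 genes of erythropoietin and BCR-ABL1 signalling, GAB2 and CISH were at top clusters. CISH, a feedback inhibitor induced by STAT5, had 6604 bp with daunorubicin and 7261 bp in untreated cells. Of 14 megakaryocyte and platelet genes, GP1BB and GP6 were within 50 kb, at clusters in TBX1 and RDH13. Of 20 immediate early genes, FOSB and DUSP1 lay 11268 and 17300 bp from clusters with ratios of 1.23 and 1.20. BIRC5, the apoptosis inhibitor survivin, was 1 of 16 apoptosis genes, 28297 bp from the cluster nearest to TMEM235, with 6561 bp with daunorubicin and 4466 bp in untreated cells, a ratio of 1.47.

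The 10 globin genes, the 18 genes of haem synthesis and iron, the 20 p53 targets, the 19 antioxidant genes, the 14 genes of anthracycline transport and metabolism, the 19 ALDH genes and the markers of granulocytes and monocytes, lymphocytes, hepatocytes and of epithelium and fibroblasts had 0 genes within 50 kb of a top cluster. Over all protein-coding genes this share was 3.77%, so 0 in a short list is near the background. The best-ranked clusters near HBB, GATA1, TAL1 and MYC were at ranks 3699, 3525, 2445 and 9224. The median best rank was 4454 over all protein-coding genes with a cluster within 50 kb, and 1803 over such erythroid transcription factors. Clusters farther than 50 kb from a gene were not linked to it. Those near STAT5A, LMO2 and TFRC, the transferrin receptor, were at ranks 354, 405 and 590. Peaks at gene ends are outside the rule, so a locus whose marked sites lie within 1 kb of an end could not rank by them.

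The same rule applied to the daunorubicin list gave a set of 300 that shared a part of the top clusters. Of the 300 untreated top clusters, 102 (34.0%) overlapped one of the 300 highest daunorubicin clusters. For the highest 600 daunorubicin clusters it was 177, and 71 lay past rank 1000 of that list. The number with no distal daunorubicin cluster was 0. With 1409 clusters taken from each list, 820 untreated ones were overlapped, so the count depends on the cut. The 300 chosen on the daunorubicin list held 8 single peaks, a median of 7 peaks and a median span of 39140 bp, and 22.3% had a transcript start. The 300 chosen on the untreated list held 127 single peaks, a median of 2 peaks and a median span of 8559.5 bp, and 52.3% had a start. When the daunorubicin list was cut to as many peaks as the untreated list by score, its top 300 held 41 single peaks and a median of 4 peaks, and with only peaks at or above the untreated median score in both lists the counts of single peaks were 54 for daunorubicin and 203 for untreated cells. Ranked by summed width alone, both sets held 0 single peaks, and a start was under 16% of the daunorubicin-chosen and 18.3% of the untreated-chosen clusters.

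**Figure D5:**
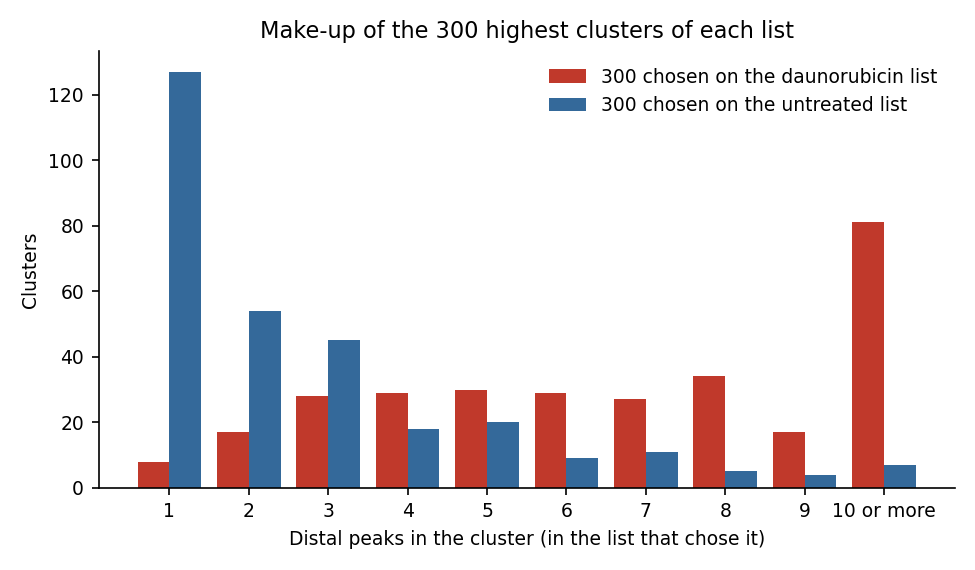
Number of clusters (y axis) by the number of distal peaks they hold (x axis) among the 300 highest of the daunorubicin list (red, left bars) and the 300 highest of the untreated list (blue, right bars). The daunorubicin-chosen set has 8 single peaks and the untreated-chosen set 127.

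The score scale of the lists differed. The highest score was 660 in the daunorubicin list and 876 in the untreated list, the upper quartile was 83 with daunorubicin and 120 in untreated cells, and the median was 41 with daunorubicin and 43 in untreated cells. Scores of 300 or more were held by 750 daunorubicin peaks, 1.15% of that list, and by 2186 untreated peaks, 5.67%. The part of these score scales in the different make-up of the 2 sets of clusters was not tested. Of the single-peak top clusters 22 of 127 (17.3%) overlapped the daunorubicin-chosen 300, and of those with 3 or more peaks 61 of 119 (51.3%) did.

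The direction of the difference also went with the list that chose the regions. The 300 chosen on the daunorubicin list were longer with daunorubicin in 290 cases (96.7%) with a median ratio of 1.54, against 193 and 1.05 for the 300 chosen on the untreated list. Among the untreated top clusters, the 102 in both sets had a median ratio of 1.13 and the 198 others 1.01. The daunorubicin-chosen set held 199 clusters that overlapped no untreated top cluster. The highest was at ANXA3, an annexin, with 29281 bp with daunorubicin and 13010 bp in untreated cells, followed by PI4KA, a phosphatidylinositol kinase, with 6420 bp with daunorubicin and 3012 bp in untreated cells.

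The limit of 300 fell on a smooth stretch of the curve. Just inside were clusters at DNAJC12, MRPL14 and RDH13, with summed score times width of 442002, 441882 and 441693, and just outside were C20orf203, ARHGAP22 and SLC30A1, with 440386, 439288 and 438800. By chromosome, the top clusters were most numerous on chromosome 1 with 39, chromosome 6 with 26 and chromosome 19 with 25. They were 4.19% of the clusters on chromosome 19 and 3.94% on chromosome 16, against 1.89% over all chromosomes, and 0.567% on chromosome 20.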

How the data were processed

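The deposited files were lists of called peaks with a score per peak; that score is the authors' value, and how it was computed is not stated in the labels or headers. The submitters' processing notes name Bowtie2 2.3.4.3, MACS2 2.1.1 and deepTools 3.2.1 and the builds hg19 and hg38, without roles or parameters; coordinates were read as hg38. From the lists, distal peaks were stitched and ranked as described, with RefSeq ends of 59098 genes. Overlap needed 1 bp, and a peak was counted as on a start where it overlapped the start window. Coverage was the summed full width of all peaks touching the span of a cluster. A change was called past 1.5-fold. Scripts used Python 3.11.15 and pandas 2.3.3 and were checked against bedtools 2.31.1 on simulated peaks. Gene lists, members, named genes and the comparison with the rest were chosen with earlier results of these data known. The transcript start split, the printed loci and sequences, and the daunorubicin-chosen set were added after values were seen. Named genes are those at the 20 highest clusters, the 10 largest gains and losses in bp, the 10 with most peaks (11 with ties), up to 5 per gene list, and 3 each side of the limit; CHST5, GRK6, ELAPOR2, the clusters near STAT5A, LMO2, TFRC, HBB, GATA1, TAL1 and MYC, and those of the daunorubicin-chosen set were named after their values were seen. With 1 library per condition no test was possible.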

Additional observations from a re-analysis of the deposited data

How the results depend on the processing

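No paired analysis was possible because each condition had 1 library. Of 95 values recomputed under 13 listed settings and 3 added after seeing the data, 62 moved little, 32 moved and 1 changed direction; the cause was not tested unless the construction of the setting gives it. The values refer, in order, to the main 92.5% of peaks overlapped, 64.3% of clusters longer, 6.00% past 1.5-fold either way, and 92 daunorubicin-only peaks. With scores at or above the untreated median there were 6631 clusters, with 94.4%, 57.7%, 3.67% and 13. With as many daunorubicin peaks as untreated, 81.4% were overlapped, 52.0% longer and 37 peaks new. Ends of protein-coding genes only gave 94.2% overlapped. A gap of 5 kb gave 98.6% overlapped, 2.00% past 1.5-fold and 3 new peaks, and 25 kb gave 89.5%, 75%, 10.0% and 500. Ranking by width gave 74.0% longer, 12.3% past 1.5-fold and 288 new peaks. The highest 150 gave 94.2% overlapped, 3.33% past 1.5-fold and 39 new peaks, the highest 600 gave 168 new peaks, and the slope-1 limit gave 9.94% and 373. Reciprocal overlap of 50% left 74.3% overlapped and 263 new peaks. Coverage clipped to the span turned the direction, with 33.7% longer and 3.33% past 1.5-fold. With 5 kb added on each side of the span before clipping, 68.3% were longer. The count of top clusters also in the daunorubicin-chosen set, 102, was 50 for the highest 150, 279 for the highest 600, 820 for the slope-1 limit and 56 for clusters with no start; the other settings gave 102 to 150. These 4 counts follow from the number of clusters taken. Read depth was unknown, so a missing peak was not separable from a weak one.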
